A study of Meleagris gallopavo with 8 samples.

Results

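The ubiquitin-conjugating (E2) enzymes and the deubiquitinating enzymes were described in turkey breast muscle by the genes assembled from its messenger RNA and by their read counts. A gene was taken as a member when its name in the authors' annotation began with UBE2 and a letter, USP and a digit, OTU or UCHL, and when at least 1 transcript under that name matched a reference transcript exactly, was contained in one or was a splice variant of one. This rule gave 60 of the 7360 gene names assembled in these classes, of which 25 were UBE2, 30 USP, 3 OTU and 2 UCHL genes. The samples were pectoralis major muscle of turkeys of the random-bred line RBC2, harvested at 22 weeks. They comprised 4 samples of normal meat, classed by high marinade uptake at a day after slaughter, and 4 of pale, soft and exudative (PSE) meat, classed by low uptake. The labels do not say whether each sample came from its own bird. The deposited count table has 8 columns without names, and nothing in the labels ties a column to a sample, so no value below belongs to normal or PSE meat and no comparison between them was made. Columns are numbered by their place in the table as a name only.

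Ubiquitin is activated by an E1 enzyme, passed to an E2, and attached to a target protein with the help of an E3 ligase, which often marks the protein for the proteasome. Deubiquitinating enzymes remove or trim the chains. The USP, OTU and UCHL families are cysteine proteases that do this, and several of them recycle ubiquitin at the proteasome. In skeletal muscle this system carries out much of the turnover of contractile proteins and is known for its part in wasting.

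The 8 columns summed to between 7389830 and 12066951 counts over 23108 loci. Scaling factors by the trimmed mean of M values (TMM) lay between 0.968 and 1.05. Of the skeletal muscle markers, 5 of 10 were assembled under their symbols. Together they held between 20200 and 25280 CPM (counts scaled to a column total of 1000000) in every column. They ran from TNNI2, a fast troponin, with a median of 12110 CPM, to PVALB, the calcium buffer parvalbumin, with 1.63, and the locus of DES is shared with DNPEP. The summed level of 3 of 4 fibroblast markers ranged from 676 CPM in column 4 to 6525 in column 7, and that of 5 of 5 leukocyte markers from 41.2 to 80.0. Fat cell markers (2 of 3 assembled) ranged from 66.2 to 172, and endothelial markers (3 of 4) from 99.6 to 171. None of the red blood cell or Schwann cell markers was assembled under its symbol. In a bulk sample, fewer cells of a type and less RNA per cell cannot be told apart.

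Levels of the E2 and deubiquitinating genes were expressed as CPM of the TMM-scaled column total, divided by the kilobases of the joined exons of the locus, with the median over the 8 columns as the gene's level. By this measure 42 of the 60 members (70.0%) lay above 7.69, the median of the 7271 loci with a named transcript of the same classes, which 50.0% of those loci exceed. The UBE2 genes stood highest as a family, with 22 of 25 (88.0%) above that median and a family median of 23.7 CPM per kilobase. The USP genes had a family median of 16.3 and a range from 0.931 to 1075, and 18 of 30 were above. Both UCHL genes were above it and all 3 OTU genes below it, with family medians of 17.4 and 3.98. With the 50 members whose locus carries no other gene name, 32 (64.0%) lay above, and the USP family median fell to 7.85 CPM per kilobase, close to that of all named loci, while the UBE2 median was 24.2. In CPM, without division by length, the medians over all members were 59.7 for UBE2, 53.0 for USP, 16.5 for OTU and 23.7 for UCHL genes. Levels were divided by the joined exons of the locus, so the order per kilobase also rests on assembled length. The members' own exons, which are all or part of the joined exons, had a median of 1899 bases in UBE2 and 3629 in USP genes.

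**Figure D1:**
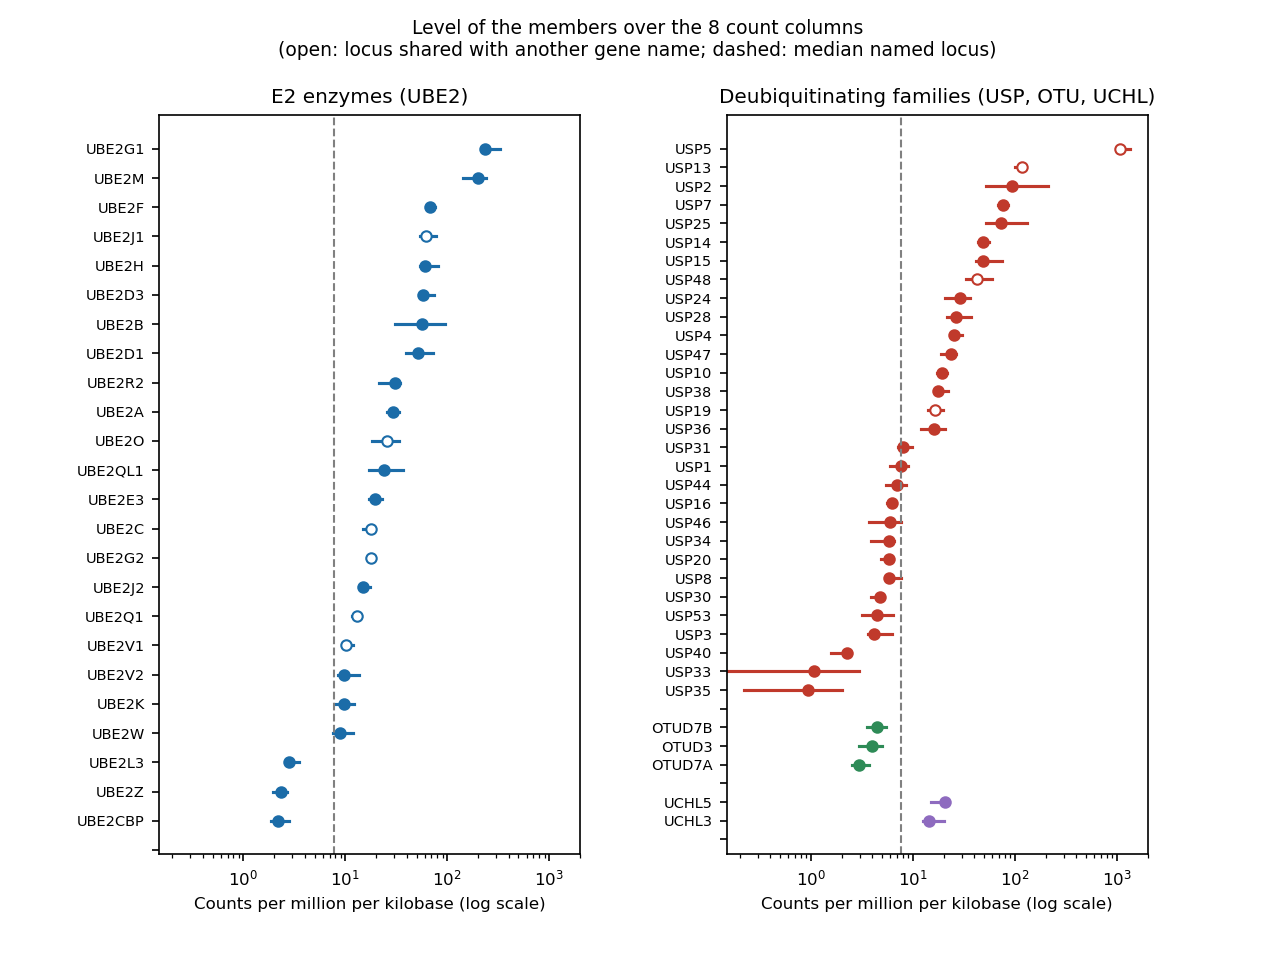
Level of 59 of the 60 members in CPM per kilobase of joined exons (horizontal log axis), with the E2 family on the left and the USP, OTU and UCHL families on the right. Points are medians and lines the range over the 8 count columns, open points mark loci shared with another gene name, and the dashed line is the median of named loci (7.69). The lowest value of USP33 is 0 and its line runs to the edge of the axis. USP5 has the highest point (1075) at a shared locus, and UBE2G1 leads the E2 enzymes at 234.

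Among the E2 enzymes, UBE2G1, which builds ubiquitin chains and works in the disposal of proteins from the endoplasmic reticulum, had the highest level. It had 437, 423, 630, 442, 487, 579, 432 and 449 CPM in columns 1 to 8, with column 3 the highest and column 6 next. The level was 234 CPM per kilobase (range 223 to 332), above 98.2% of named loci. Its locus lies on chromosome 21 from 3384876 to 3407893 on the plus strand and carries no other gene name.

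UBE2M and UBE2F, the E2 enzymes that carry the ubiquitin-like protein NEDD8 to cullins, ranked next in the family by level per kilobase. UBE2M had a median of 61.7 CPM (44.7 to 74.9) and a level of 198 per kilobase (144 to 241). Only 311 bases in 4 exons were assembled for it, on an unplaced sequence (GL426065.1, from 3544 to 4734), and the level per kilobase rests on that short length. UBE2F had 50.2 CPM (46.1 to 56.1) and a level of 67.3 (61.8 to 75.2). It was assembled as 2 contained fragments with 746 joined bases, so its level rests on a short length too. In CPM, without division by length, the UBE2 family median was 59.7. The level ranges of UBE2M and UBE2F did not overlap, and those of UBE2G1 and UBE2M did. NEDD8 had no assembled transcript under its symbol.

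UBE2J1, an E2 enzyme of the endoplasmic reticulum membrane, had 408 CPM (353 to 504). Its locus on chromosome 2, from 78978912 to 79031115, also carries RRAGD, a GTPase of amino acid sensing, and UBE2J1 transcripts cover 35.6% of the joined exons. The level of 62.3 CPM per kilobase therefore belongs to both genes. UBE2H (60.5), UBE2D3 (58.3), UBE2B (56.5) and UBE2D1 (51.9) followed, with ranges over the columns that overlapped each other. UBE2D1 and UBE2D3 are E2 enzymes that pair with many ligases. UBE2D3 had 148 CPM (134 to 188), highest in column 6.

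UBE2B, a RAD6 homologue known from rodent muscle to rise in wasting, had 106, 107, 171, 103, 74.3, 99.4, 73.6 and 54.6 CPM in columns 1 to 8. Column 3 was the highest and column 8 the lowest, 3.13 times apart. UBE2A, the other RAD6 homologue, had 151 CPM (131 to 174) and a level of 29.4 per kilobase against 56.5 for UBE2B. UBE2A was 1.33 times apart, with its highest value in column 6. UBE2B has a single assembled transcript, an exact match of 5 exons and 1790 bases on chromosome 15 from 15705875 to 15711629, minus strand.

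The lower end of the E2 family held UBE2L3, UBE2Z and UBE2CBP. UBE2L3, which serves ligases that take ubiquitin onto a cysteine of their own, had 12.5 CPM (11.9 to 15.7) and a level of 2.81 per kilobase. Loci on the opposite strand of its exons had a median of 144.5 counts against 100.5 for UBE2L3 itself. UBE2Z, an E2 enzyme charged by UBA6, had a level of 2.33. UBE2CBP had the lowest level, 2.17, with 12 to 23 counts in a column. Despite its name it is not an E2 enzyme: the gene is now called UBE3D and encodes a ligase that binds UBE2C. The catalytically inactive E2 variants UBE2V1 and UBE2V2 stood at 10.2 and 9.77, at loci of which their own exons cover 59.8% and 31.3%. Their partner UBE2N had no transcript under its symbol.

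The highest value of all members stood at the USP5 locus. USP5 takes apart free ubiquitin chains. The locus had 5280, 5802, 5638, 4491, 4342, 4604, 4625 and 4692 CPM in columns 1 to 8, and its level of 1075 per kilobase lay above 99.7% of named loci. It held 41.0 to 48.8% of the counts of all members in a column (median 44.6%). It lies on chromosome 1 from 80917467 to 80935183, plus strand, and holds 3 transcripts, of which 1 is named USP5 (19 exons, 2930 bases) and 2 carry the protein entry name Q70I42_MELGA. A variant of 7 exons under that second name begins 7 bases inside the first exon of USP5 and continues into the exons of the neighbouring exact match, which joins both names into 1 locus. USP5 exons make up 67.6% of the joined exons, and the counts cannot be divided between the names. In the RefSeq gene order of turkey (assembly Turkey_5.1), 1 gene (LRRC23) separates USP5 from TPI1, a glycolytic enzyme, and neither LRRC23 nor TPI1 has a transcript under its symbol in the annotation. Whether Q70I42_MELGA is either of them was not tested. Summed over all members the counts were 1.05 to 1.24% of a column's total, and 0.587 to 0.662% without USP5. They were 0.37 to 0.46% over the 50 members whose locus carries no other gene name.

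USP13, a relative of USP5, had 594 CPM (508 to 621) at a locus on chromosome 11 that also carries the name NDUFB5, a subunit of respiratory complex I. Its own exons were 65.0% of the locus. USP7, a nuclear deubiquitinating enzyme known for stabilising MDM2 and p53, had 344 CPM (307 to 387) at a locus of its own, and a level of 76.6 per kilobase. The highest of its columns was 1.26 times the lowest. Among the USP genes whose locus carries no other gene name, USP2 had the highest level, 93.2 per kilobase.

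Among the deubiquitinating enzymes of the proteasome, USP14, which trims chains there, had 99.0 CPM (89.2 to 115), and UCHL5, which binds the proteasome too, had 30.5 (22.7 to 34.0). Their levels per kilobase were 48.5 and 20.4. PSMD14, the metalloprotease of the lid and no member here, lay between them at 33.1. UCHL3, which removes small adducts from ubiquitin and NEDD8, had 16.9 CPM (14.9 to 23.8) and a level of 14.3.

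USP19, known to rise in wasting rodent muscle, had 109 CPM (93.6 to 130) and a level of 16.4 per kilobase at a locus whose transcripts also carry the name DALRD3. USP25 and USP28 are close relatives, and USP25 has a muscle isoform in humans. USP28 had 149 CPM (122 to 207), highest in column 4, and USP25 had 329 (234 to 591), highest in column 6. The levels were 26.5 and 73.0 per kilobase, and their ranges did not overlap.

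USP8, an endosomal enzyme, and USP16, a histone deubiquitinase, had 32.9 (31.6 to 42.9) and 19.2 (17.2 to 19.9) CPM. USP47, known from base excision repair, had 192 (154 to 215), and USP15, known from TGF-beta signalling, had 227 (195 to 350). The lowest USP levels were those of USP33 and USP35, both assembled as fragments of 2 exons. USP33 was covered over 232 bases with 0 to 6 counts in a column, which sets no level for the gene. USP35 had 4 to 36 counts, with 36 in column 4 and 4 in column 7.

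The OTU members were all low per kilobase of joined exons. In CPM, OTUD7A lay above 58.4% of named loci, OTUD7B above 44.15% and OTUD3 above 19.5%. OTUD7B, known as Cezanne, had 16.5 CPM (13.2 to 20.1), its relative OTUD7A 28.0 (23.8 to 34.9) and OTUD3 5.50 (4.11 to 6.90). Per kilobase these were levels of 4.45, 2.95 and 3.98, with overlapping ranges. Own exons covered 42.1% of the OTUD7A locus, and the rest belongs to transcripts without that name.

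The families' names were also carried by 5 genes that the class rule left out. OTUD1 had a single transcript of 1 exon that overlaps its reference otherwise, and its locus had 180, 295, 491, 249, 312, 278, 159 and 133.5 CPM in columns 1 to 8. With a level of 160 per kilobase it would rank above every OTU member. UCHL1, a hydrolase known for its abundance in neurons, had 7 exons but no class, with 12.8, 23.1, 41.0, 37.1, 5.59, 15.2, 6.12 and 6.02 CPM. Columns 3 and 4 were its highest and column 5 its lowest, 7.33 times apart. UBE2E1, USP43 and USP6NL were the others, and USP6NL, a Rab GTPase activator, is no deubiquitinating enzyme. RefSeq lists 79 protein-coding symbols of these families for turkey, of which 55 were members, 5 were the names just given and 19 had no transcript under the symbol, among them UBE2N, UBE2Q2, UBE2T, OTUD4, OTUD5, USP9X, USP12 and USP32.

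The spread of a gene was taken as its highest scaled count divided by its lowest over the 8 columns, for loci with a mean count of at least 100. In all, 52 of the 60 members passed that filter, which 66.2% of named loci pass. A spread above 2 was seen in 5 of the 52 members (9.62%), against 20.8% of the 4812 named loci that passed. With a mean count of at least 300 the count was 4 of 38, against 18.0%. The median spread was 1.48 over the members (1.49 for UBE2 and 1.39 for USP genes) and 1.55 over named loci (quartiles 1.38 and 1.88). For 47 of the 52 members the exact 95% counting intervals of the highest and the lowest column did not overlap, a share near the 91.7% of named loci. These intervals cover counting error only. The highest or the lowest column stood apart from the others, with a gap past Dixon's 95% critical share of the range, in 6 of the 52 members (11.5%) and in 8.29% of named loci.

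USP2, a deubiquitinating enzyme whose RNA follows the clock in mouse tissues, had the largest spread of the members that passed. It had 243, 349, 372, 530, 147, 129, 157 and 219 CPM in columns 1 to 8. Column 4 was the highest and column 6 the lowest, 4.11 times apart. The counting interval of column 4 begins at 514, and that of column 6 ends at 137. The spread was 2.88 without column 4, and USP2 was above 2 whichever column was left out. The locus lies on chromosome 26 from 4416638 to 4440310, plus strand, with 2 variants of 13 and 14 exons and 1 contained fragment. Transcripts inside its introns, at 2 further loci, had 56 to 295 counts in a column.

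USP25 was 2.53 times apart, with 420, 320, 234, 271, 348, 591, 337 and 241 CPM in columns 1 to 8. UBE2QL1, an E2-like gene, was 2.15 times apart, with 64.4, 72.4, 88.1, 98.9, 51.9, 64.2, 45.9 and 63.9. USP53, which was named after its values were seen, was 2.01 times apart, from 13.8 in column 4 to 27.7 in column 6. Column 6 was thus the highest for USP25 and USP53, and column 4 the highest for USP2 and UBE2QL1 and the lowest for USP53. For USP25, UBE2QL1, USP53 and UBE2B, leaving out a single column brought the spread below 2. The spread was 1.96 for UBE2B without column 3, 1.80 for USP25 and 1.66 for USP53 without column 6, and 1.90 for UBE2QL1 without column 7. Column 7 had the lowest UBE2QL1 value and the highest sum of fibroblast markers, and the part of those markers in the result was not tested.

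**Figure D2:**
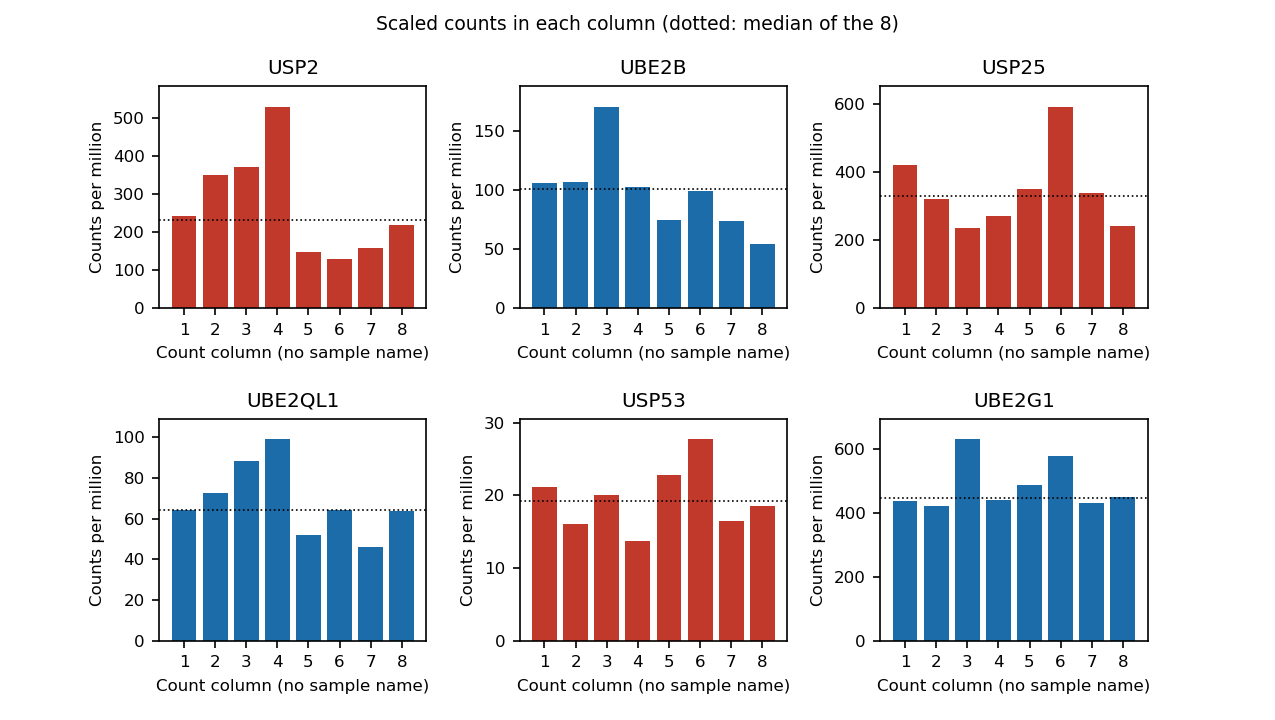
Scaled counts in each of the 8 count columns for the 5 members with a spread above 2 and for UBE2G1, the E2 enzyme with the highest level (vertical axis in CPM from 0, dotted line at the median). USP2 peaks in column 4 at 530 and UBE2B in column 3 at 171, while USP25 and USP53 peak in column 6.

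**Figure D3:**
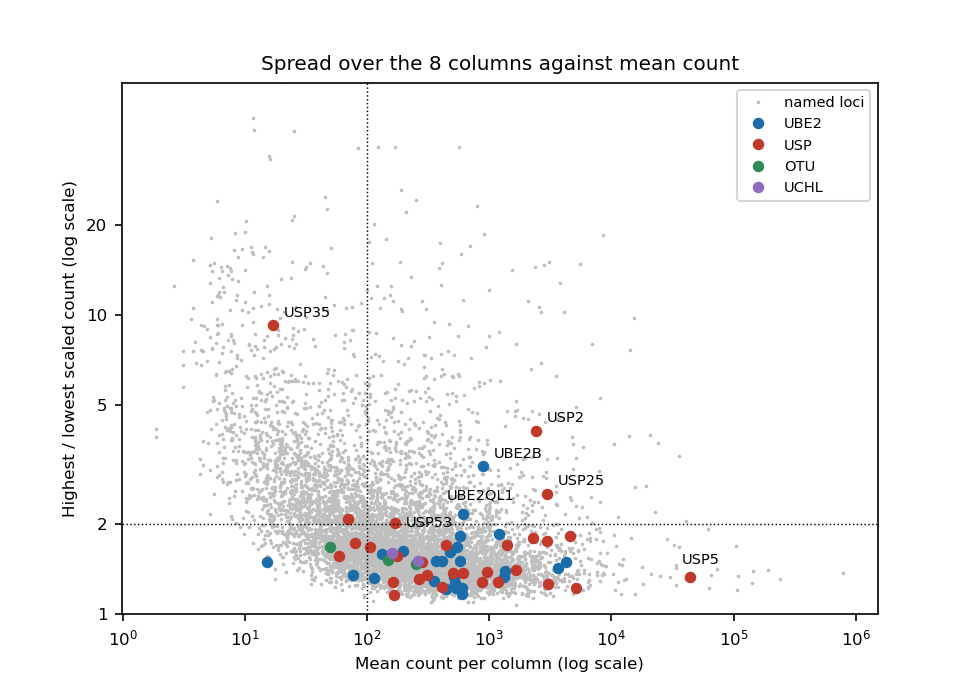
Highest over lowest scaled count (vertical log axis) against the mean count per column (horizontal log axis) for named loci (grey) and members (coloured by family). Dotted lines mark a mean count of 100 and a spread of 2. Of the members to the right of the first line, 5 lie above the second, and USP5, with the largest mean count, is at 1.34.

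Column 3 held the highest value of 15 of the 52 members (28.8%) and of 19.5% of named loci. Column 6 held it for 11 members (21.2%, against 16.3% of named loci) and column 7 for none (10.1% of named loci). The members highest in column 3 included UBE2B, UBE2D1, UBE2G1, USP14 and USP15. USP15 had 234, 288, 350, 333, 206, 220, 213 and 195 CPM in columns 1 to 8. Summed over the UBE2 genes, 0.208 to 0.278% of a column's counts fell on the family, with column 3 the highest, and 0.816 to 0.952% fell on the USP genes. Without the shared USP5 locus the USP share was 0.363 to 0.416%, with column 4 the highest. These sums count whole loci, also those shared with other names. Over the 50 members whose locus carries no other gene name the share was 0.37 to 0.46%, with column 3 the highest. The most even members were USP16 (1.16), UBE2G2 (1.16), UBE2F (1.22), UBE2Q1 (1.22) and USP13 (1.22), of which UBE2G2, UBE2Q1 and USP13 share their loci with other names.

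Other genes of the pathway gave a frame for these levels. Of 8 genes for E1 enzymes or their subunits, 5 were assembled, with levels of 3.82 to 23.0 CPM per kilobase and none with a spread above 2 among the 4 that passed the count filter. A list of 14 other deubiquitinating enzymes was set by symbols outside the member rule, not by enzyme family. From it 11 were assembled, with a median level of 7.54, and COPS5, the subunit that removes NEDD8 from cullins, was the highest at 78.2. Of these, 9 passed the count filter and 1, STAMBPL1 (2.06), had a spread above 2. Of 22 ligases 19 were assembled, with a median level of 30.3, and all 19 passed the count filter. A spread above 2 was seen in 4 of the 19, a share near the 20.8% of named loci that passed. The muscle ligase FBXO32 went from 63.6 to 958 CPM, 15.1 times, with its highest value in column 4. ASB2 went from 334 to 1214 (3.63 times), TRIM63 from 23.1 to 63.2 (2.74 times) and NEDD4 from 20.8 to 50.9 (2.45 times), all highest in column 2. CUL3 at 417 CPM (375 to 461) was among the even ones.

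The members were represented by 134 transcripts, of which 22 were exact matches, 42 contained fragments and 70 variants. A variant stood in 39 of the 60 members (65.0%), against 52.0% of all assembled gene names. It stood in 24 of 30 USP genes (80.0%), 13 of 25 UBE2 genes (52.0%), 2 of 3 OTU genes and neither UCHL gene. The longest chain had a median of 14 exons in USP genes and 6 in UBE2 genes. Of the 26 members with 10 or more exons 22 (84.6%) had a variant, against 72.5% of such gene names, and of the 34 with fewer exons 17 (50.0%), against 43.4%. An exact match stood in 14 of 25 UBE2 genes (56.0%) and 5 of 30 USP genes (16.7%), against 38.7% of all assembled names. The USP genes with an exact match were USP1, USP4, USP14, USP15 and USP44. USP24 had the longest chain, 47 exons in a contained fragment of 9292 bases.

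USP15 and USP47 had the most transcripts, 7 each, followed by UBE2G1, USP8 and USP16 with 6. In USP15 on chromosome 1, from 34586489 to 34659996, an exact match of 22 exons stood beside 4 variants and 2 contained fragments. An 84-base exon (34633079 to 34633162) was held by 5 of the 7 and skipped by 1, and 3 of the variants started from an exon of their own at least 31130 bases downstream. UBE2D3 had 4 transcripts on chromosome 4, minus strand, and a 50-base exon (43218164 to 43218213) was held by 2 and skipped by 2. The UBE2G1 variants differed in the 5′ exon and shared the next junctions, and its 4 contained fragments were single exons of 92 to 280 bases at the 3′ end. The 6 USP16 transcripts covered different stretches of the gene, none its whole length, with at most 7 exons, and 3 of the 7 USP47 transcripts were single exons, so these numbers are not numbers of full isoforms.

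**Figure D4:**
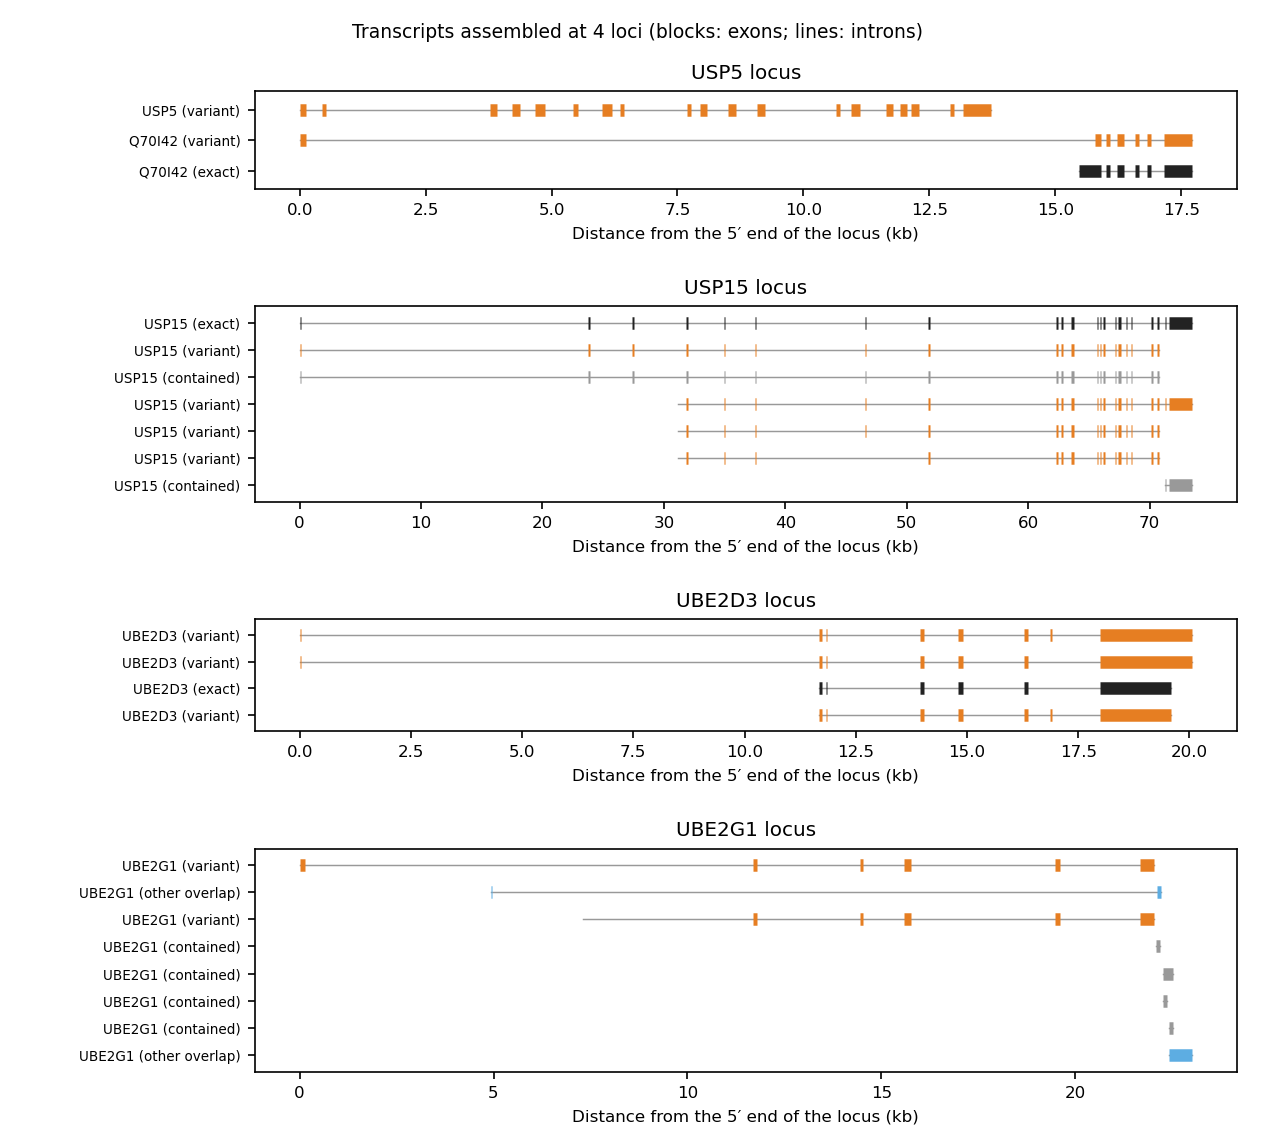
Transcripts assembled at the USP5, USP15, UBE2D3 and UBE2G1 loci, drawn to scale against the distance in kilobases from the 5′ end of each locus, with exons as blocks coloured by class and introns as lines. At the USP5 locus the 7-exon variant named Q70I42 starts at the first exon of USP5 and ends with the neighbouring exact match. USP15 transcripts begin at separate exons, and 4 of the 8 UBE2G1 entries are contained single exons.

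Of the 30 members with at least 2 spliced transcripts, 16 (53.3%) showed a splice difference of the kinds searched, against 37.2% of the 3978 assembled gene names with at least 2. Skipped exons were found in 7 (23.3%, against 16.8%), namely UBE2D3, USP8, USP10, USP15, USP16, USP31 and USP48. The length was a multiple of 3 in 4 of the 7 exons (45, 84, 90 and 105 bases). That share was not computed for other gene names, so it is not read as a trait of the members. Alternative acceptor sites gave 8 differences, counted by pairs of sites, in 6 members (6 of the 30, against 12.4% of those gene names). In USP36 and USP47 the sites lay 3 bases apart, and USP8 used 3 acceptors within 6 bases, each pair of which was counted. The shares in this search were not matched for exon number or number of transcripts. Whether an exon or site was used more in some columns cannot be read from counts per locus.

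Another gene name stood on the locus of 10 of the 60 members (16.7%), against 3.94% of all assembled gene names. Besides USP5, USP13, USP19 and UBE2J1 these were UBE2C, UBE2G2, UBE2O, UBE2Q1, UBE2V1 and USP48. At the UBE2C locus the transcript named for this mitotic E2 enzyme had 118 bases, 5.10% of the joined exons, beside DNTTIP1 and ZSWIM3, so the 41.0 CPM there do not measure UBE2C. UBE2G2 shared its locus with SUMO3, and USP48 with HSPG2, the basement membrane protein perlecan, with USP48 exons on 32.3% of the joined exons. USP48 was highest in column 8, at 733 CPM against 402 to 541 in the others. RefSeq places HSPG2 next to USP48 and SNAI1 next to UBE2V1. The USP24 locus carries no other name but holds 4 further transcripts without one, and USP24 exons cover 78.7% of it. Among those transcripts is an exact match of a reference transcript, so the USP24 counts may include another gene. USP24 was nevertheless kept among the members whose locus carries no other gene name.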

How the data were processed

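Messenger RNA from 8 breast muscle samples was sequenced on an Illumina GAIIx, per the labels. Per the submitters' processing notes, the tools were TopHat, Cufflinks, HTSeq and DESeq, with no version or role. No source used here gives the genome build, reference annotation, curation rule or strand setting. The authors deposited a merged Cufflinks annotation and whole-number counts per locus, not normalized. The count table has 8 columns, 0 of them named. The members and gene lists were chosen with earlier results of these data known.

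The annotation and counts were joined by locus in Python 3.11.15 (pandas 2.3.3, NumPy 2.4.6, SciPy 1.17.1, Matplotlib 3.10.9). TMM factors (30% trim of log ratios, 5% of mean values) were computed directly and checked on simulated counts. Intervals are exact Poisson limits at 95% and cover counting error only. A rule set which genes were named. Per family it took the 4 highest levels and the lowest. Over all members it took the 4 largest spreads, the 4 with most transcripts (ties kept) and a fixed set. Other members with values in the text, such as UBE2A, UBE2D1, USP24 and USP48, were outside that rule. The design made the test of PSE against normal depend on columns tied to samples, so the test was not run. Gene order came from the RefSeq table of Turkey_5.1, whose coordinates were not used. Coordinates are 1-based, in the annotation's build. No sequence is shown. The values of 1 member are not reported here.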

Additional observations from a re-analysis of the deposited data

Results flagged for a closer look

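Among the 52 members with a mean count of at least 100, the highest of the 8 columns stood apart from the next in 6, by a gap that was a larger part of the whole range than Dixon's 95% critical value for 8 values. This was 11.5% of the members, against 8.29% of the 4812 named loci with that mean count, counting a highest or a lowest column apart. Chance flags about 1 in 20 such sets, and no column is tied to a kind of meat. Column 3 stood apart in UBE2B (0.547 of the range), UBE2D1 (0.593) and UBE2L3 (0.703). Column 6 did in UBE2H (0.548), column 4 in USP10 (0.534) and column 8 in USP48 (0.579), whose locus is shared with HSPG2. UBE2D1 had 92.4 CPM in column 3 against 50.5 to 67.6 in the others. UBE2L3 had 15.7 against 11.9 to 13.0, within the counting intervals of its highest and lowest column.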

How the results depend on the processing

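Counting only exact matches left 22 of the 60 members. With the longest transcript in place of the joined exons, the median levels were 26.1 for UBE2, 19.5 for USP and 9.93 for OTU genes, against 23.7, 16.3 and 3.98. With loci of 1 gene name the USP median was 7.85. With column totals in place of TMM the OTU median spread was 1.43. Leaving out each column in turn gave median spreads of 1.35 to 1.49 for UBE2 and 1.37 to 1.41 for USP genes. For OTU and UCHL genes they were 1.41 to 1.49 and 1.42 to 1.55. Without column 3 the UBE2 median (1.35) was below that of the USP genes (1.39). The same held without column 6 (1.347 against 1.375). The number of members with a spread above 2 was then 3 to 5 over the columns left out. That number was 4 with column totals or size factors, where USP53 fell to 1.96 and 1.99. Of all values under the alternatives, 100 stayed within a set limit and 13 did not. For numbers of members the limit was 1.5 times. For a median level it was the standard deviation of the family median over the columns. For a median spread it was the standard deviation over the genes of the family. OTU and UCHL median levels rest on 3 and 2 genes, and their median spreads on 2 genes each. No paired analysis was possible because the columns carry no replicate numbers. The PSE comparison was not run because no column is tied to a sample. Depth limits USP33, USP35 and UBE2CBP, with mean counts of 2.5, 17.0 and 15.2.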

Other observations

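Transcripts close to a member, which carry its name but lie in loci of their own, had counts comparable to the member itself in some cases. At USP46 these were 5 single-exon transcripts in 1 locus with 64 to 136 counts in a column, against 41 to 84 for USP46. At USP3 the ratio of median counts was 87.7%, at USP53 61.2%, at USP40 57.4% and at USP38 36.2%. These counts are not part of the levels given above.

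Transcripts lying antisense to an exon carried the names of 7 members, 55 transcripts in all, and 31 of them belonged to USP24. Those of USP24 were single exons at 31 loci and together had 63 to 153 counts in a column, 3.60% of the median count of USP24. Loci of any name on the opposite strand of member exons were found at 13 members, and their counts exceeded the member's own at 3: UBE2L3, UBE2Z and USP20. At USP20 they had a median of 871.5 counts against 261.5. No source used here gives the strand setting of the counting, so reads of both strands cannot be told apart there. How often other gene names have such transcripts or loci was not computed, so these numbers are not read as a trait of the members.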
